A study of Homo sapiens with 12 samples.

Results

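The 45 genes described here are ribosome biogenesis factors, the nucleolar and nuclear proteins that turn the ribosomal RNA precursor and ribosomal proteins into the 2 ribosomal subunits. They were chosen by symbol, and a gene was kept where some group had a detection p-value under 0.05 for it on each of its 3 arrays. Of the 45 listed, 43 had a probe in the platform annotation and 41 entered the tests, beside 10584 named genes and 14285 features (named genes plus unnamed probes) in all. GNL3 and WDR43 had no probe in the annotation used and were not analysed here. NPM1, a nucleolar chaperone, and WDR3, a scaffold protein of the small subunit processome, each had a single probe, detected on 1 and 2 of the 12 arrays, and did not enter.

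RNA came from Caco-2, an established line of epithelial cells derived from a human adenocarcinoma of the colon, and was measured on 12 Illumina HumanHT-12 V4 bead arrays. The 4 groups of 3 arrays combined ON-TARGETplus siRNA against MTF1 or the ON-TARGETplus Non-targeting siRNA #1 with zinc at 3 µM (low) or 150 µM (high). All groups were transfected with lipofectamine RNAiMAX and grown in the same serum-containing medium, so that no untransfected cells were compared. MTF1 is the metal-responsive transcription factor that senses zinc and switches on metallothionein genes, and the title of the series asks what MTF1 does in the transcript response to zinc. The design text of the series instead speaks of ZNF658, another zinc-responsive factor, but all 12 sample labels name MTF1 and were followed. Both ZNF658 probes were detected on 0 arrays.

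Ribosome assembly starts in the nucleolus, where RNA polymerase I transcribes the long ribosomal RNA precursor. Small nucleolar ribonucleoprotein particles (snoRNPs) modify it, box C/D particles by methylation and box H/ACA particles by pseudouridylation, and the U3 particle seeds a large assembly called the small subunit processome. Further factors then carry the separated precursors of the small (40S) and large subunits to the cytoplasm. In many cell types the growth regulator MYC drives these genes together through E-box sequences in their promoters, and colonic epithelium and the tumours derived from it express them abundantly.

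Between 18191 and 19469 of the 47323 probes were detected per array, and the number of arrays limits the precision of every value. Of the 7 colonic epithelial markers with a probe, 6 were detected on all 12 arrays and KRT20 on 5, while HNF4A had no probe in the annotation used. Of the markers of other cell types, CD3E, VWF and KDR were detected on no array, and COL1A1, COL1A2, COL3A1, LUM, CD14, LYZ and CDH5 on all 12. The summed log2 level of the 6 fibroblast markers lay between 39.42 and 40.81 at low and 41.03 and 41.76 at high zinc with control siRNA, and between 38.21 and 39.46 at low and 40.14 and 40.71 at high zinc with MTF1 siRNA. The sum of the 4 immune markers lay between 26.53 and 27.27 and between 25.87 and 26.28 with control siRNA, and between 26.75 and 27.40 and between 25.81 and 26.63 with MTF1 siRNA. The epithelial sum lay between 71.86 and 72.76 and between 72.75 and 73.99 with control siRNA, and between 71.97 and 72.73 and between 71.79 and 72.61 with MTF1 siRNA. The endothelial sum lay between 19.55 and 20.26 and between 20.12 and 20.21 with control siRNA, and between 19.38 and 19.73 and between 19.92 and 21.35 with MTF1 siRNA. Part of these sums moved with zinc, and their part in the results was not tested. In bulk RNA, fewer cells expressing a gene and less of its RNA per cell cannot be told apart.

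The treatments themselves were visible on the arrays. Levels are normalized log2 intensities, given as mean ± SD over 3 arrays, and a difference is a log2 change with its standard error (SE) from limma. The metallothionein MT2A was 4.36 ± 0.26 (SE) higher at high than at low zinc with control siRNA and 4.90 ± 0.26 higher with MTF1 siRNA (limma, adjusted p = 6.69e-07 and 1.77e-07). The zinc exporter SLC30A1 was 2.64 ± 0.10 and 2.15 ± 0.10 higher (adjusted p = 1.44e-08 and 4.48e-08). For MTF1 against control siRNA at high zinc SLC30A1 changed by -0.57 ± 0.10 (limma, adjusted p = 0.0188) and MT2A by -0.25 ± 0.26 (adjusted p = 0.624). At low zinc neither passed (adjusted p = 0.736 and 0.228). MTF1 stood at 6.61 ± 0.15 and 6.70 ± 0.13 at low and high zinc with control siRNA, and at 5.90 ± 0.33 and 5.72 ± 0.48 with MTF1 siRNA (SD, n = 3). Within each zinc concentration the MTF1 siRNA arrays all lay below the control arrays, and the transcript was still detected on all of them. The difference passed the threshold of 0.05 at high zinc (log2 change -0.98 ± 0.22, limma, adjusted p = 0.0483) and not at low zinc (-0.71 ± 0.22, adjusted p = 0.201). The labels do not say that the arrays of a group came from separate cultures, so the p-values measure only the spread between these samples, which may be technical.

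Detection chose the 41 tested members, and of these 39 were detected on all 12 arrays (95.1%, against 79.8% of all features). The exceptions were RRP9, a protein that binds U3 RNA, detected on 11 arrays, and UTP20, a processome scaffold, detected on 9. The members were brighter, with a mean log2 level per array between 9.73 and 9.84, against 7.96 to 7.97 over all features. The part of brightness in the spread given next was not tested. The range of a gene's 4 group means on the log2 scale had a median of 0.26 over the members and 0.39 over all features. It was smallest for DKC1, the pseudouridine synthase of the H/ACA particle, at 0.06, and largest for RRP9 at 0.85, NHP2 at 0.73, RRP12 at 0.63 and NOP16 at 0.63. The probe of RRP9 was dim, and its zinc change with MTF1 siRNA was 0.30 without background correction. Each member was represented by its brightest probe that entered, and 11 members had further probes that entered, 16 in all.

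High zinc with control siRNA raised 3 members and lowered 2 of 41 (12.2%), where 18.0% of all features passed the threshold, 8.62% upwards and 9.39% downwards. The median change of the members was 0.06, against -0.01 over all features, and 11 members (26.8%) had an unadjusted p under 0.05, against 32.6% of all features. The 3 high-zinc arrays lay wholly above the low-zinc arrays for 11 members (26.8%) and wholly below for 4 (9.76%), where the background shares were 17.4% and 17.9%. For 36 of the 41 the 95% confidence interval of the change lay within 1.5-fold in either direction, as it did for 54.1% of all features; the exceptions were NHP2, NOC3L, NOP10, NOP16 and RRP9. The count of 5 fell to 1 without replicate 1 of control siRNA at low zinc or replicate 3 at high zinc, to 2 without replicate 3 at low zinc, and to 3 without replicate 2 at low zinc or any array of MTF1 siRNA at high zinc. It lay between 2 and 10 under the alternatives that keep all arrays, 10 without background correction and 2 without the filter on dim probes. With MTF1 siRNA, high zinc raised 1 member and lowered 0 of 41 (2.44%), where 15.7% of all features passed (7.20% upwards and 8.51% downwards), and 7 members (17.1%) had an unadjusted p under 0.05, against 29.2% of all features. The count of 1 was 2 without replicate 3 of control siRNA at high zinc and between 1 and 3 under the alternatives that keep all arrays. Groups lay wholly apart for 10 members upwards (24.4%) and 2 downwards (4.88%), against 16.1% and 19.2% of all features. The interval lay within 1.5-fold for 36 members, against 56.8% of all features, the exceptions being NOC2L, NOC4L, RRP12, RRP9 and UTP20. The zinc changes with the 2 siRNAs share no arrays, and they had the same sign in 22 of 41 members (53.7%) and in 65.1% of all features.

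**Figure D1:**
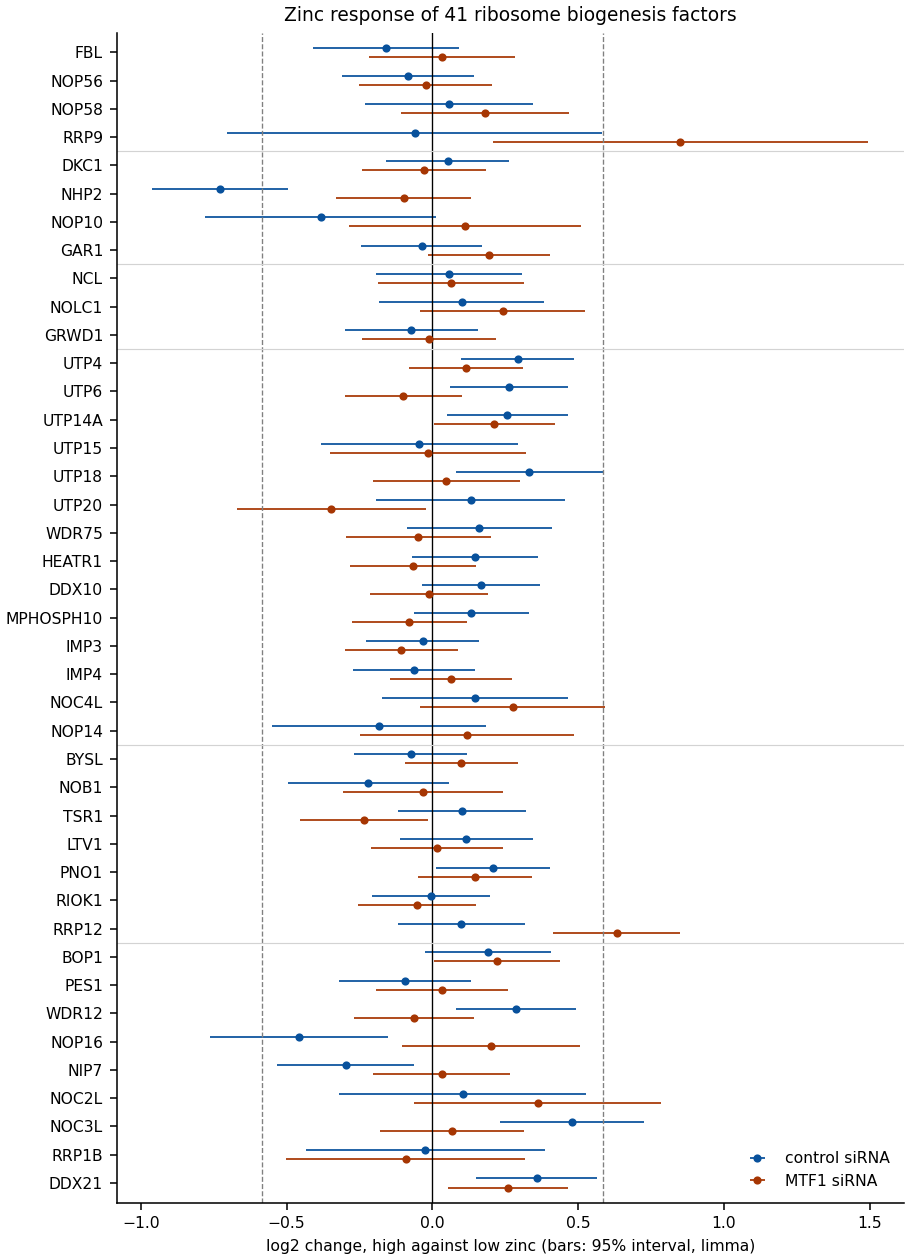
Log2 change from low to high zinc of each of the 41 tested members, ordered by role, with control siRNA and with MTF1 siRNA. Points are fitted changes with their 95% confidence intervals over 3 arrays a group; most intervals lie inside the 1.5-fold lines, and NHP2 with control siRNA and RRP12 with MTF1 siRNA stand outside zero by the most among called members.

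In the plot of zinc changes by role, the called members were NOC3L, NOP16 and DDX21 of the large subunit group, NHP2 of the H/ACA particle, UTP4 of the processome and RRP12 of the pre-40S factors. Each member was given a single role, and DDX21, a helicase of ribosomal RNA transcription and processing, was counted with the large subunit. With control siRNA the role medians ran from -0.21 for the 4 box H/ACA proteins and -0.07 for the 4 U3 and box C/D proteins to 0.15 for the 14 tested processome proteins. The 3 nucleolar chaperones stood at 0.06, the 7 pre-40S factors at 0.10 and the 9 large subunit factors at 0.10. With MTF1 siRNA the same medians were 0.04, 0.11, -0.01, 0.06, 0.02 and 0.07. These counts and medians are a description, and no difference between roles was tested.

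Among the box H/ACA proteins, which guide pseudouridylation and are shared with telomerase, NHP2 fell at high zinc with control siRNA. NHP2 is the small RNA-binding core protein of the particle. Its log2 level was 11.84, 11.76 and 11.66 on the control siRNA arrays at low zinc and 11.07, 10.98 and 11.04 at high zinc. With MTF1 siRNA it was 11.38, 11.64 and 11.68 at low zinc and 11.59, 11.47 and 11.36 at high zinc. The control arrays at high zinc were the lowest 3 of all 12. Of the other groups, control siRNA at low zinc lay wholly above MTF1 siRNA at high zinc, and MTF1 siRNA at low zinc overlapped both. The change with control siRNA was -0.73 ± 0.11, a level 1.66-fold lower (limma, adjusted p = 0.000904), and with MTF1 siRNA it was -0.10 ± 0.11 (adjusted p = 0.597, 95% interval -0.33 to 0.13). At high zinc NHP2 was 0.44 ± 0.11 higher with MTF1 than with control siRNA, with the arrays wholly apart (adjusted p = 0.0580). The difference between the zinc changes, the interaction, was 0.63 ± 0.15 (adjusted p = 0.168). It passed without background correction (adjusted p = 0.0318), with the authors' log2 values (0.0347) and with a variance trend and robust eBayes (0.0351), and the high-zinc difference passed under these and with the stricter filter or the mean of probes (0.00681 to 0.0486). The call for zinc with control siRNA held under all alternatives tried, with an adjusted p of at most 0.00594 when an array was left out.

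NHP2 had more than 1 probe on the platform. Its 4 probes changed by -0.73, -0.82, -0.66 and -0.72 with control siRNA, and all passed when adjusted over the 17413 entering probes (limma, adjusted p = 0.00105, 0.00275, 0.00299 and 0.00383). With MTF1 siRNA the same probes changed by -0.10, -0.15, -0.09 and -0.03. The probes share the same RNA and are not replicates.

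**Figure D2:**
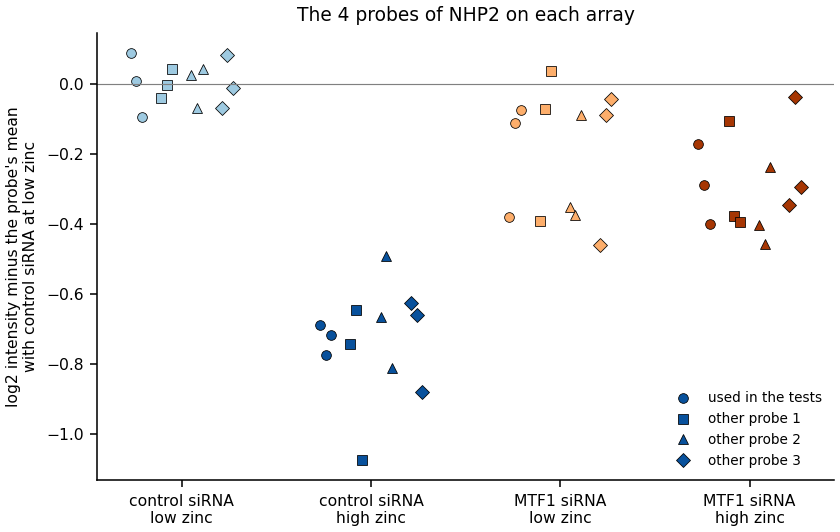
Log2 level on each of the 12 arrays of the 4 NHP2 probes, as the difference from the probe's own mean with control siRNA at low zinc, for the 4 groups along the axis; each point is an array and each marker shape a probe. All 4 probes are lowest on the control siRNA arrays at high zinc.

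The plot of the NHP2 probes shows the control siRNA group at high zinc apart from its low-zinc group for each of them. The other core proteins did not pass. NOP10, the smallest core protein, measured 12.19, 11.90 and 12.31 at low and 11.64, 11.70 and 11.90 at high zinc with control siRNA, so that the groups met at 11.90. Its change was -0.38 ± 0.18 (limma, adjusted p = 0.168), its further probe gave -0.44 (adjusted p = 0.0751), and with MTF1 siRNA the change was 0.11 (adjusted p = 0.743). DKC1 changed by 0.05 (adjusted p = 0.745) with control siRNA. GAR1, which helps release the substrate, changed by -0.04 (adjusted p = 0.823), while its other 3 probes ran from -0.02 to 0.36, none past the threshold.

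The box C/D proteins gave no call. FBL, the methyltransferase fibrillarin, changed by -0.16 with control siRNA and 0.03 with MTF1 siRNA (limma, adjusted p = 0.366 and 0.887). NOP56 and NOP58, the paired scaffold proteins of the particle, changed by -0.08 and 0.06 with control siRNA and by -0.02 and 0.18 with MTF1 siRNA. RRP9 was the exception in size. With MTF1 siRNA its arrays read 5.79, 5.76 and 5.22 at low zinc and 6.71, 6.09 and 6.52 at high zinc, and with control siRNA 6.59, 6.23 and 5.61, and 5.86, 5.72 and 6.67. The groups were apart only with MTF1 siRNA, where the change was 0.85 ± 0.29 (limma, adjusted p = 0.0735). Without background correction the change was 0.30 (adjusted p = 0.0475), and with the authors' log2 values 0.33 (adjusted p = 0.0426), and at its first size it also passed with only these groups (0.0366), with a variance trend (0.0339) and with array weights (0.0469), so that its size and its call depended on the processing. This probe was dim and had the widest spread of the members.

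The nucleolar chaperones and organisers also gave no call in any comparison. NCL, nucleolin, stood at group means of 11.85, 11.91, 11.75 and 11.81 in the order control low, control high, MTF1 low and MTF1 high. Its probes disagreed. With zinc the probe used changed by 0.06 with each siRNA, and the further probe by 0.18 with control and -0.19 with MTF1 siRNA. For MTF1 siRNA at low zinc they gave -0.10 and 0.45, none past the threshold. NOLC1, which organises the fibrillar centre, changed by 0.10 and 0.24 at high zinc with control and MTF1 siRNA (limma, adjusted p = 0.627 and 0.242). GRWD1, a chaperone of ribosomal protein L3, changed by -0.07 and -0.01.

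In the small subunit processome 1 of 14 tested proteins (7.14%) rose with control siRNA, where 18.0% of all features passed, and 0 passed with MTF1 siRNA. UTP4, a scaffold protein of the early t-UTP complex, measured 11.17, 11.12 and 11.11 at low and 11.47, 11.27 and 11.54 at high zinc with control siRNA. With MTF1 siRNA it measured 11.27, 11.28 and 11.23 at low and 11.35, 11.40 and 11.38 at high zinc. High zinc was above low zinc on every array within each siRNA. The fitted step was smaller with MTF1 siRNA, but the interaction was -0.18 ± 0.13 and did not pass (limma, adjusted p = 0.508). The changes were 0.29 ± 0.09 (limma, adjusted p = 0.0410) and 0.12 ± 0.09 (adjusted p = 0.432). The first lost its call without any 1 of 9 of the 12 arrays, with an adjusted p between 0.0553 and 0.135, and kept it without replicate 2 of control siRNA at high zinc or replicate 1 or 3 of MTF1 siRNA at low zinc. UTP18, UTP6, UTP14A and WDR75, further processome proteins, changed by 0.33, 0.26, 0.26 and 0.16 with control siRNA, none past the threshold.

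The remaining processome proteins did not pass with either siRNA. IMP3 and IMP4, which pair U3 with the precursor, had group means within 0.11 and 0.12 of each other. HEATR1, which also supports transcription by RNA polymerase I, changed by 0.15 and -0.07 with control and MTF1 siRNA, MPHOSPH10 by 0.13 and -0.08, and the helicase DDX10 by 0.17 and -0.01. UTP15 changed by -0.04 and -0.02. UTP20 changed by 0.13 and -0.35. For NOP14 the probes disagreed, with changes of -0.18 and 0.42 with control siRNA (limma, adjusted p = 0.487 and 0.0574). For NOC4L, which pairs with NOP14, the brighter probe changed by 0.15 and 0.28 and the dimmer by 0.59 and 0.66, none past the threshold. Averaged over both siRNAs the further probes of NOC4L and NOP14 passed, at 0.63 and 0.30 (adjusted p = 0.0377 and 0.0448), while the brighter probes did not (0.21 and -0.03, adjusted p = 0.160 and 0.874).

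Of the factors that mature the pre-40S particle, RRP12 rose at high zinc with MTF1 siRNA. RRP12 is a HEAT-repeat protein needed for export of the subunit precursors. With MTF1 siRNA its level was 8.56, 8.41 and 8.53 at low zinc and 9.10, 8.99 and 9.30 at high zinc. With control siRNA it was 8.83, 8.78 and 8.88 at low zinc and 8.99, 8.83 and 8.97 at high zinc. The MTF1 siRNA arrays at low zinc were the lowest 3 of the 12. The change with MTF1 siRNA was 0.63 ± 0.10, or 1.55-fold (limma, adjusted p = 0.00119), and its call held under all alternatives tried, with an adjusted p of at most 0.0109 when an array was left out. With control siRNA it was 0.10 ± 0.10 (adjusted p = 0.528, 95% interval -0.12 to 0.32), and the interaction was 0.53 ± 0.14 (adjusted p = 0.168). The other 6 factors did not pass with either siRNA. TSR1, a GTPase-like factor, changed by 0.10 with control and -0.23 with MTF1 siRNA, the endonuclease NOB1 by -0.22 and -0.03, its partner PNO1 by 0.21 and 0.15, BYSL by -0.07 and 0.10, LTV1 by 0.12 and 0.02, and the kinase RIOK1 by -0.01 and -0.05.

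Among the 9 members grouped as large subunit factors, DDX21 included, 2 rose and 1 fell with control siRNA (33.3%, against 18.0% of all features). NOC3L, which joins early precursors of the large subunit, read 8.53, 8.65 and 8.61 at low and 8.96, 9.03 and 9.23 at high zinc with control siRNA. With MTF1 siRNA it read 8.81, 8.43 and 8.63 at low and 8.64, 8.64 and 8.78 at high zinc. The control arrays at high zinc were the highest 3 of the 12. The changes were 0.48 ± 0.11, or 1.39-fold (limma, adjusted p = 0.0136), and 0.07 ± 0.11 (adjusted p = 0.759). The first lost its call without replicate 1 of control siRNA at low zinc (adjusted p = 0.0516) or replicate 3 at high zinc (adjusted p = 0.0556).

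DDX21, a nucleolar RNA helicase of ribosomal RNA transcription and processing, rose at high zinc with control siRNA and was higher on every high-zinc array with MTF1 siRNA. It read 11.82, 11.96 and 11.90 at low and 12.20, 12.23 and 12.32 at high zinc with control siRNA, and 12.08, 11.90 and 11.83, and 12.12, 12.19 and 12.28, with MTF1 siRNA. High and low zinc thus did not overlap with either siRNA. The changes were 0.36 ± 0.09, or 1.28-fold (limma, adjusted p = 0.0226), and 0.26 ± 0.09 (adjusted p = 0.0878). The first lost its call without replicate 1 or 3 of control siRNA at low zinc (adjusted p = 0.0848 and 0.0572) or replicate 3 at high zinc (adjusted p = 0.0766).

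NOP16, a small protein of large subunit precursors, fell with control siRNA. It read 9.89, 9.82 and 9.79 at low and 9.59, 9.42 and 9.12 at high zinc with control siRNA, and 9.91, 9.54 and 9.97, and 9.92, 10.12 and 9.98, with MTF1 siRNA. The control arrays at high zinc lay below the other control arrays and overlapped 1 MTF1 siRNA array at low zinc. The change was -0.46 ± 0.14 (limma, adjusted p = 0.0422) with control siRNA, its further probe gave -0.29 (adjusted p = 0.176), and with MTF1 siRNA the change was 0.20 (adjusted p = 0.380). The call was lost without any 1 of 8 of the 12 arrays, with an adjusted p between 0.0505 and 0.150, and kept without replicate 1 of control siRNA at high zinc or any array of MTF1 siRNA at low zinc. NIP7, another small factor, changed by -0.30 ± 0.11 with control siRNA (adjusted p = 0.0772). Of the PeBoW complex that processes large subunit RNA, WDR12 changed by 0.29 (adjusted p = 0.0551), BOP1 by 0.19 and PES1 by -0.09, and of the remaining factors NOC2L changed by 0.10 and RRP1B by -0.02.

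**Figure D3:**
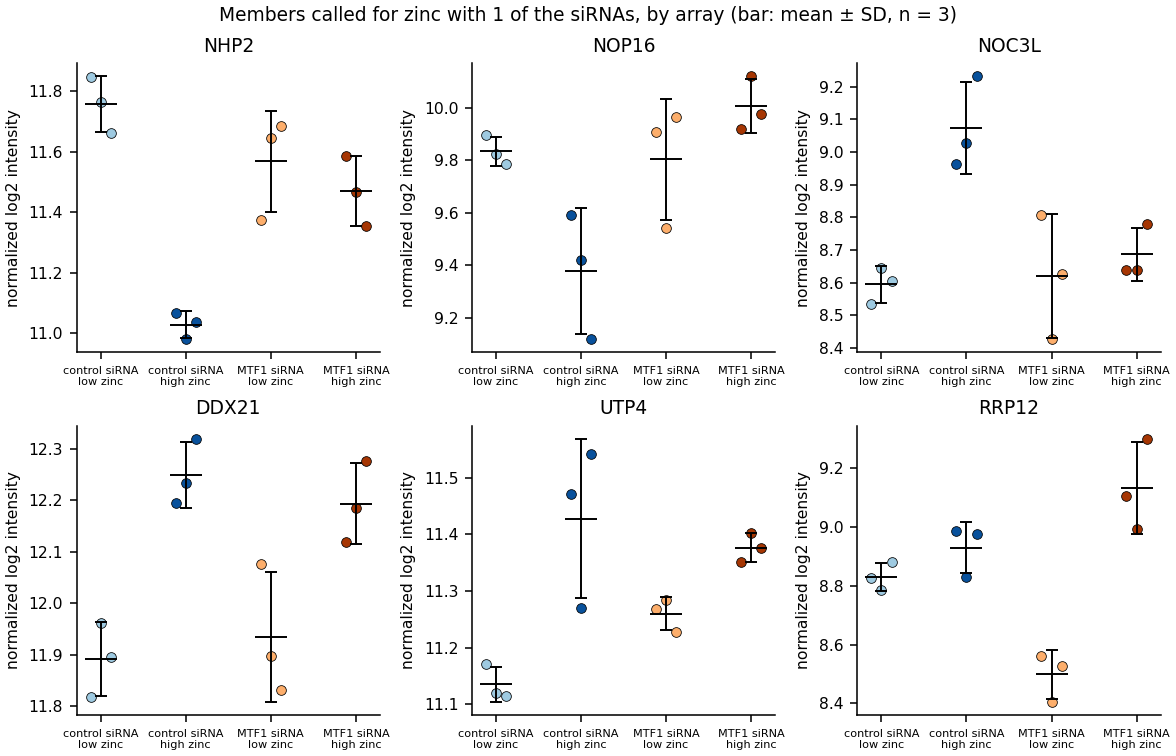
Log2 level on each of the 12 arrays of the 6 members past the threshold of 0.05 for zinc with control or with MTF1 siRNA, with 1 panel a gene; points are arrays and bars are mean ± SD over 3 arrays. NHP2 is lowest and NOC3L highest on the control siRNA arrays at high zinc, where NOP16 has its lowest group mean, while RRP12 is lowest on the MTF1 siRNA arrays at low zinc.

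Averaged over both siRNAs, 6 arrays against 6, high zinc raised 6 members and lowered 1 of 41 (17.1%), where 27.1% of all features passed (12.6% upwards and 14.5% downwards). The count of 7 fell to 4 without replicate 1 of control siRNA at low zinc, and to 3 without replicate 3 of control siRNA at high zinc, replicate 2 of MTF1 siRNA at low zinc or replicate 3 of MTF1 siRNA at high zinc. The plot of called members by array shows 4 of the 6 that rose and NHP2. The 6 that rose were RRP12 (0.37), DDX21 (0.31), NOC3L (0.27), UTP14A (0.23), BOP1 (0.21) and UTP4 (0.20), and NHP2 fell by 0.41. UTP14A, which releases U3 from the processome, read 8.92, 8.96 and 9.13 at low and 9.26, 9.15 and 9.37 at high zinc with control siRNA, and 9.01, 8.90 and 9.02, and 9.15, 9.16 and 9.25, with MTF1 siRNA. High and low zinc were apart with each siRNA, and the averaged change was 0.23 ± 0.07 (limma, adjusted p = 0.0225). The further probe of UTP14A gave 0.18 and did not pass (limma, adjusted p = 0.1845). BOP1, of the complex that processes large subunit RNA, read 11.03, 10.96 and 11.06 at low and 11.24, 11.01 and 11.38 at high zinc with control siRNA, and 11.00, 10.97 and 11.02, and 11.24, 11.17 and 11.25, with MTF1 siRNA. Its groups were apart with MTF1 siRNA and overlapped with control siRNA, and its averaged change was 0.21 ± 0.07 (adjusted p = 0.0466). When an array was left out, the averaged calls of NHP2, RRP12 and DDX21 held, and those of UTP14A, NOC3L, UTP4 and BOP1 were lost without 4, 4, 9 and 11 of the 12 arrays, the adjusted p then reaching 0.0562, 0.0635, 0.0709 and 0.1001. The interval of the averaged change lay within 1.5-fold for 40 of 41 members, RRP9 being the exception, and for 76% of all features.

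In the comparisons of MTF1 siRNA against control siRNA 1 member in all passed, at high zinc. At low zinc 0 of 41 passed in limma, where 0.119% of all features did (17 of 14285), and 5 members (12.2%) had an unadjusted p under 0.05, against 14.7% of all features. Groups were wholly apart for 8 members upwards (19.5%) and 2 downwards (4.88%), against 11.6% and 8.83% of all features. The median change was -0.02, and 0.06 where arrays were centred on their median, so that its sign depended on the scaling. TSR1 read 8.25, 8.50 and 8.54 with control siRNA and 8.86, 8.73 and 8.93 with MTF1 siRNA, apart on every array, a change of 0.41 ± 0.10 (limma, adjusted p = 0.126). RRP12 changed by -0.33 ± 0.10 (adjusted p = 0.190), with every MTF1 siRNA array lower. UTP20 read 5.39, 5.06 and 5.16 with control and 5.55, 5.65 and 5.79 with MTF1 siRNA, a change of 0.46 ± 0.15 (adjusted p = 0.214). LTV1, an assembly factor released before the small subunit matures, read 10.63, 10.76 and 10.38, and 10.80, 10.81 and 10.89, a change of 0.25 (adjusted p = 0.302). WDR12 read 10.65, 10.70 and 10.70, and 11.02, 10.87 and 10.81, a change of 0.22 (adjusted p = 0.316). In all 3 the groups were apart, with MTF1 siRNA higher. For 36 members the interval lay within 1.5-fold, against 68.6% of all features, the exceptions being NOP10, RRP1B, RRP9, TSR1 and UTP20.

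At high zinc MTF1 siRNA raised 1 of 41 members and lowered 0 (2.44%), where 1.90% of all features passed (0.672% upwards and 1.23% downwards), and 5 members (12.2%) had an unadjusted p under 0.05, against 20.7% of all features. Groups were wholly apart for 9 members upwards (22.0%) and 4 downwards (9.76%), against 12.9% and 13.4% of all features. The member that rose was NOP16, whose arrays are given above and did not overlap, by 0.63 ± 0.14 or 1.55-fold (limma, adjusted p = 0.0480), and its further probe gave 0.63 (adjusted p = 0.0451). The call was lost without any 1 of 10 of the 12 arrays, with an adjusted p between 0.0503 and 0.152, and kept without replicate 1 of control siRNA at high zinc or replicate 2 of MTF1 siRNA at low zinc. NOC3L changed by -0.39 ± 0.11 (adjusted p = 0.0970). NIP7 read 10.27, 10.53 and 10.38 with control and 10.71, 10.73 and 10.57 with MTF1 siRNA, a change of 0.27 (adjusted p = 0.185). UTP6, a processome protein, read 11.51, 11.26 and 11.43, and 11.19, 11.18 and 11.20, a change of -0.20 (adjusted p = 0.236). In each of these the groups did not overlap, NOC3L and UTP6 being lower and NIP7 higher with MTF1 siRNA. The members' median was -0.01, and 0.10 with arrays centred on their median. The interval lay within 1.5-fold for 33 members, against 63.7% of all features. The exceptions were NHP2, NOC2L, NOC3L, NOP10, NOP14, NOP16, RRP1B and RRP9.

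**Figure D4:**
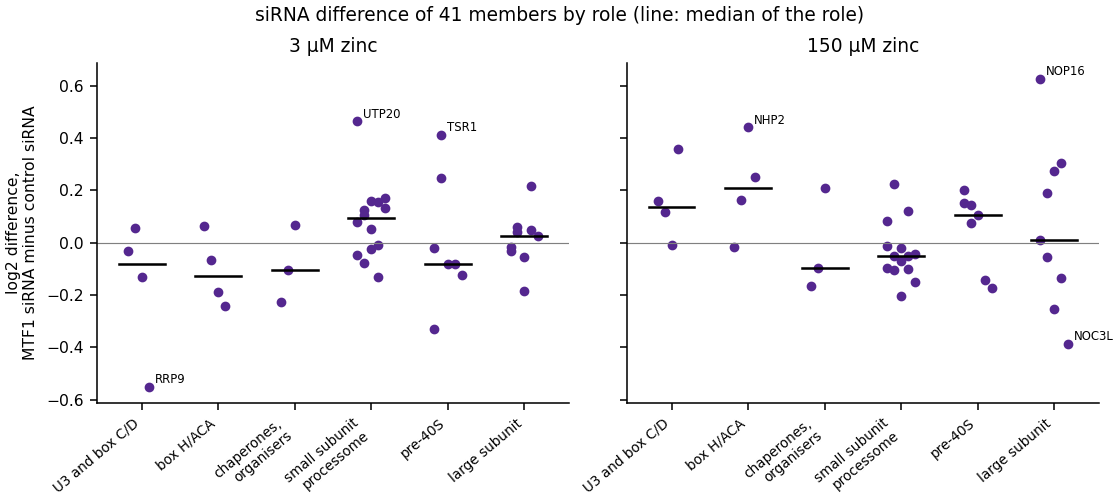
Log2 change of the 41 tested members with MTF1 siRNA relative to control siRNA at low and at high zinc, by role; each point is a member and bars are role medians. Points lie mostly near zero in every role, and NOP16 at high zinc is the called member.

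The plot of siRNA changes by role shows medians from -0.13 for the H/ACA proteins to 0.09 for the processome at low zinc, and from -0.10 for the chaperones to 0.21 for the H/ACA proteins at high zinc. Averaged over both zinc levels 0 of 41 members passed in limma, where 2.13% of all features did, with 6 (14.6%) at an unadjusted p under 0.05, against 19.1% of all features. TSR1 was closest at 0.24 (adjusted p = 0.0979), followed by NOP16 at 0.30 (adjusted p = 0.139) and GRWD1 at -0.20 (adjusted p = 0.183). GRWD1 read 9.48, 9.45 and 9.63, and 9.28, 9.32 and 9.26, with control and MTF1 siRNA at low zinc, and 9.40, 9.52 and 9.41, and 9.34, 9.07 and 9.42, at high zinc, where the groups overlapped. The interval of the averaged change lay within 1.5-fold for all 41, and for 88.3% of all features. The interaction, the zinc change with MTF1 siRNA minus that with control siRNA, passed for 0 of 41 members and for 3 of 14285 features (0.0210%) in limma, with 9 members (22.0%) at an unadjusted p under 0.05, against 15.9% of all features. NHP2, RRP12 and NOP16 led at 0.63, 0.53 and 0.66 (adjusted p = 0.168, 0.168 and 0.187), and UTP6 and WDR12 stood at -0.36 and -0.35 (adjusted p = 0.235 and 0.252). At low zinc UTP6 read 11.13, 11.05 and 11.21 with control and 11.33, 11.33 and 11.21 with MTF1 siRNA, so that MTF1 siRNA was higher there and lower at high zinc. The interaction is the least precise comparison, and its interval lay within 1.5-fold for 26 of 41 members, against 37.2% of all features.

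The members' change at high zinc with control siRNA was ordered by the genomic length of the gene, taken from RefSeq (GRCh38.p14). This pattern was noticed in these data and is given as a description. Across genes Spearman's rho was 0.65 over the 41 members and 0.13 over 10576 named genes. Genes are not independent replicates, and all points share the same arrays. For MTF1 siRNA at high zinc rho was -0.55 over the members and -0.24 over named genes, and for the interaction -0.61 and -0.25; these comparisons share the control siRNA arrays at high zinc. For the comparisons without those arrays rho over the members was -0.12 for zinc with MTF1 siRNA and 0.37 for MTF1 siRNA at low zinc. Over named genes it was -0.09 and 0.09. The latter comparison shares the control siRNA arrays at low zinc with zinc under control siRNA.

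**Figure D5:**
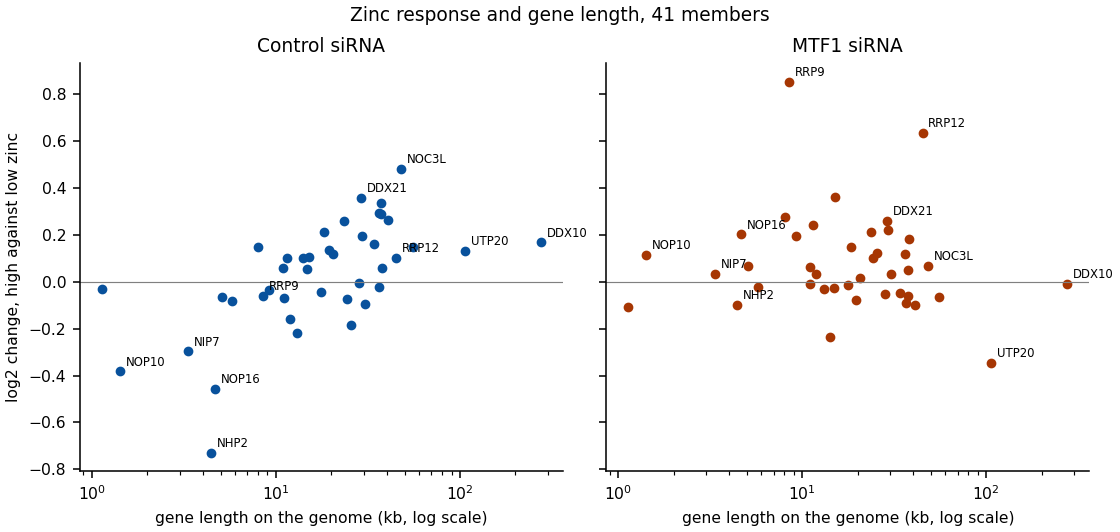
Log2 change of the 41 tested members against genomic length on a log10 axis, for zinc with control siRNA and zinc with MTF1 siRNA; each point is a member. Short genes lie low and long genes high with control siRNA, with a Spearman correlation of 0.65, against -0.12 with MTF1 siRNA.

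The plot of change against length shows which genes make the ends. The 10 shortest members, of at most 9228 bp, are IMP3, NOP10, NIP7, NHP2, NOP16, IMP4, NOP56, NOC4L, RRP9 and GAR1. Their median change with zinc and control siRNA was -0.07, and 9 of the 10 were negative. The 10 longest, of at least 36520 bp, are RRP1B, UTP18, WDR12, NOP58, UTP6, RRP12, NOC3L, HEATR1, UTP20 and DDX10. Their median was 0.16, and 1 of the 10 was negative. With MTF1 siRNA the medians were 0.09 and -0.04. Taken array by array, the correlation of a member's level, relative to its mean over the arrays, with its length was -0.46, -0.40 and -0.42 for control siRNA at low zinc and 0.50, 0.34 and 0.42 at high zinc. For MTF1 siRNA it was 0.24, -0.10 and -0.21 at low zinc and -0.35, -0.23 and 0.04 at high zinc. Over the members every control array at high zinc was thus opposite in sign to every control array at low zinc, and the MTF1 siRNA arrays were mixed. Over the named genes the values were -0.10, 0.02 and -0.04, and 0.10, 0.09 and 0.16, with control siRNA. With MTF1 siRNA they were 0.13, 0.02 and -0.07, and -0.14, -0.13 and -0.07. These values come from the same arrays as the changes and are not separate support.

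The promoters of 35 of the 41 tested members were in the RefSeq table (GRCh38.p14), as the 250 bases before the gene start. BOP1, MPHOSPH10, NOLC1, NOP58, RRP12 and RRP1B were not. Those of NHP2 and NOP10, which sit in the same particle, and of NOC3L and UTP4, which rose with zinc, are shown because they differ in the motifs that MYC, MTF1 and ZNF658 are known to bind. Capitals mark the E-box CACGTG, the core of the metal response element (TGCACNC or TGCGCNC) and the half-sites CACTCC and GGAGTG of the zinc transcriptional regulatory element, searched on both strands. The half-sites are the reverse complement of each other and were counted as each reads on the strand shown. NHP2 lies on the minus strand (chr5:178153886-178154135), NOP10 on the minus strand (chr15:34343137-34343386), NOC3L on the minus strand (chr10:94362940-94363189) and UTP4 on the plus strand (chr16:69132399-69132648), each printed 5′ to 3′ towards the gene.
NHP2: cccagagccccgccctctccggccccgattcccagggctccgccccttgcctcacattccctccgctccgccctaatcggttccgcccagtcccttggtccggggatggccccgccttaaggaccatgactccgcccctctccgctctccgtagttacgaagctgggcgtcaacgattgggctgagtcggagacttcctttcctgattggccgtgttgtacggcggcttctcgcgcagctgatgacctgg
NOP10: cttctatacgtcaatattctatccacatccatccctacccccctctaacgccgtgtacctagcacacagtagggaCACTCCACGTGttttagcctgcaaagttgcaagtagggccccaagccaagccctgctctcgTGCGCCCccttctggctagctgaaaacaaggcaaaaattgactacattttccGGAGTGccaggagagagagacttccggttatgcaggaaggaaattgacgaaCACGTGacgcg
NOC3L: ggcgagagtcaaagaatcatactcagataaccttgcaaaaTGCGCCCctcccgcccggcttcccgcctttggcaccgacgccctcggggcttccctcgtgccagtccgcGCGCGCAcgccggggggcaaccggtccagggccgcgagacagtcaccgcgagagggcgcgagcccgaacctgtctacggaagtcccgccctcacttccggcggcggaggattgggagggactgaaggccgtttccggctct
UTP4: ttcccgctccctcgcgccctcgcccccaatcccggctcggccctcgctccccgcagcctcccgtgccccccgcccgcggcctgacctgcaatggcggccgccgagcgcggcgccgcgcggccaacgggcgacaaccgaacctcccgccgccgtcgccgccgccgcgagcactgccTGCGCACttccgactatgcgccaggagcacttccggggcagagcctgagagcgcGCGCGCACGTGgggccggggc
The NHP2 window holds none of these letters. NOP10 holds 2 E-boxes, 1 metal response element core and both half-sites, and its first E-box shares a base with the half-site CACTCC. NOC3L holds 2 metal response element cores. UTP4 holds 2 such cores and 1 E-box, which overlaps the core nearest the start.

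Over the 35 members the E-box was present in 7 (20.0%), against 7.73% of 27305 genes and 6.34% of 35116 promoters of that length in the table. The 7 are DDX21, IMP4, NOP10, UTP14A, UTP18, UTP20 and UTP4. The metal response element core was present in 15 (42.9%), against 28.5% of genes and 24.8% of promoters. CACTCC was present in 2 (5.71%) and GGAGTG in 6 (17.1%), against 10.0% and 10.8% of genes and 8.26% and 8.98% of promoters, and both half-sites together in NOP10 and UTP18 (5.71%, against 0.758% of genes and 0.609% of promoters). Either half-site, the count that does not depend on the strand, was present in 6 (17.1%), against 19.7% of genes and 16.6% of promoters. The genes of the table were not limited to those detected or tested here, while the members were detected. The shares are thus not matched for expression or base composition, and the part of either was not tested. A match is a run of letters, not a bound site, and a window without one says nothing about the factor.

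A list of 112 other ribosome biogenesis factors, 104 of them tested, was counted in the same way. With control siRNA 8 rose and 4 fell at high zinc (11.5%, against 18.0% of all features), with a median change of 0.07. The smallest adjusted p was that of RIOK3, an atypical kinase of the 40S precursor, which rose by 0.95 ± 0.11 (limma, adjusted p = 0.000141), followed by RIOK2, its relative, by 0.63, GTPBP4, a GTPase of the large subunit, by 0.40, DCAF13 by 0.93 and NMD3, the export adaptor of the large subunit, by 0.46. EXOSC5, of the RNA exosome, fell by 0.45, RRS1 by 0.45, DDX54 by 0.49 and DHX33 by 0.52, with adjusted p between 0.00433 and 0.0291. Among control siRNA arrays, calls were lost without replicate 1 at low zinc (DCAF13 and DDX54), replicate 2 at low zinc (DHX33), replicate 3 at low zinc (NMD3 and DHX33), replicate 1 at high zinc (NMD3), replicate 2 at high zinc (DCAF13 and DHX33) or replicate 3 at high zinc (NMD3, DDX54 and DHX33), with an adjusted p between 0.0536 and 0.109. With MTF1 siRNA 2 rose and 2 fell (3.85%, against 15.7%): RIOK3 at 0.99 (adjusted p = 6.86e-05) and EMG1 at 0.40, and PWP2 at -0.65 and DIMT1 at -0.29. The call of PWP2 was lost without replicate 1 or 3 at low or replicate 3 at high zinc (adjusted p up to 0.0633), and its change was -0.19 without background correction. Those of EMG1 and DIMT1 were lost without any 1 array of MTF1 siRNA other than replicate 3 at high zinc and replicate 3 at low zinc (adjusted p up to 0.121 and 0.109). RIOK3 thus rose at high zinc with each siRNA. Averaged over the siRNAs 13 rose and 5 fell (17.3%, against 27.1%). No factor of this list passed in limma for MTF1 siRNA at either zinc level or for the interaction. PWP2, a processome scaffold, was 0.55 ± 0.11 higher with MTF1 siRNA averaged over both zinc levels (adjusted p = 0.0295), 1 of 104 (0.962%, against 2.13% of all features). This call was lost without any 1 array other than replicate 2 of control siRNA at low zinc, replicate 1 of control siRNA at high zinc or replicate 2 of MTF1 siRNA at low zinc, with an adjusted p of up to 0.0717, and without background correction the difference was 0.18 (adjusted p = 0.0577).

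Of 17 tested genes of RNA polymerase I and the MYC network, 0 rose and 2 fell with zinc and control siRNA (11.8%, against 18.0% of all features). They were UBTF, the factor that opens ribosomal DNA for RNA polymerase I, at -0.78 ± 0.18 (limma, adjusted p = 0.0116), and NDRG1, a gene repressed by MYC, at -0.42 (adjusted p = 0.0114). Under the alternatives run the change of UBTF kept its call but lay between -0.91 and -0.295. With MTF1 siRNA MXD1, a partner of MAX that opposes MYC, rose by 0.57 (adjusted p = 0.0356), 1 of 17 (5.88%, against 15.7%). This call was lost without any 1 array of MTF1 siRNA other than replicate 1 at low zinc, with an adjusted p between 0.0585 and 0.130. The change of MXD1 lay between 0.29 and 0.64 under the alternatives run. MYC itself changed by 0.10 ± 0.10 with control siRNA and 0.29 with MTF1 siRNA (adjusted p = 0.516 and 0.0638). At high zinc UBTF was 0.80 higher with MTF1 than with control siRNA (adjusted p = 0.0480), a call lost without any 1 of 11 of the 12 arrays, all but replicate 3 of MTF1 siRNA at high zinc, with an adjusted p of up to 0.151, and the difference was 0.31 with the mean of probes (adjusted p = 0.249).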

How the data were processed

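The deposited table held bead-summarized probe intensities that were not normalized, per the file headers, with a deposited detection p-value for each. A deposited series matrix gave processed log2 values, used as an alternative, with a median of 7.03 on every array; their making was not given in the sources used here. The 12 arrays were grouped by their titles. Intensities were background-corrected with normexp (offset 16), quantile normalized and brought to log2 with the neqc function (limma 3.58.1 under R 4.3.3). The array holds 47323 probes, of which 30113 carried 1 gene symbol, 8 several and 17202 none, and 30074 matched a current symbol. The filter kept 17413 probes, a gene took the values of its brightest kept probe, and 3701 unnamed probes were tested as themselves.

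The limma model took all 12 arrays together, with a mean for each group, and was tested on simulated data. P-values are two-sided and adjusted by the Benjamini-Hochberg method over 14285 features in each comparison, with 0.05 as the threshold. Members and lists were chosen with earlier results of these data known. All members could be named, with values on every array for those past the threshold, and the 5 of smallest p-value were taken where fewer passed; of the other lists the 5 of smallest adjusted p in each direction were named.

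Alternatives were no background correction, centring, the authors' log2 values, no or a stricter filter on dim probes (detection p-value under 0.01 on all arrays), the mean of a gene's probes, the replicate block, a fit of the compared groups alone, robust eBayes with a trend of variance on mean, weights per array, and leaving out single arrays in turn. No 2 arrays were identical, and replicates correlated at 0.989 to 0.992. Of 18 same-number pairs of arrays, 1 had a correlation over 0.1, and the values ran from -0.097 to 0.144. With so few arrays this does not settle whether the replicate numbers pair them, and the main fit took no pairing.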

Additional observations from a re-analysis of the deposited data

How the results depend on the processing

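No member named with a call changed direction under any alternative run. The members' median, close to 0 for MTF1 siRNA at low zinc (-0.02), at high zinc (-0.01) and for the interaction (0.03), turned sign at low and high zinc with centring, at low zinc and for the interaction with the mean of probes, and in 3, 4 and 2 of the 12 fits without an array. Of 14 calls of members, 5 held under every one: NHP2 for zinc with control siRNA, RRP12 for zinc with MTF1 siRNA, and NHP2, RRP12 and DDX21 for zinc averaged over both siRNAs. The averaged comparison uses the same arrays as the others, so a gene called in both, such as NHP2 or RRP12, is not called on separate evidence. Of 31 calls of the other pathway genes, 16 held. Counts below are members past the threshold unless all features are named, and the cause of each move was not tested, beyond fewer arrays or other features entering by construction. For zinc with control siRNA (5) the count was 10 without background correction and with the authors' log2 values, 9 with trend and robust eBayes, 8 with the stricter filter, 2 without a filter (1540 of all features, against 2573) and 2 with only the groups compared; the median change was 0.101 with the mean of probes. For zinc with MTF1 siRNA (1) it was 3 without background correction, 3 with the authors' values, 3 with trend, 2 with array weights and 2 with only the groups compared; the median was 0.0733 with centring. For zinc averaged (7) it was 3 without a filter, and the median 0.0773 with centring and 0.0611 with array weights. For MTF1 siRNA at low zinc (0) it was 1 without background correction and 1 with the authors' values, where TSR1 passed (adjusted p = 0.0438 and 0.0479, limma). All features there (17, 5 higher and 12 lower) were 159, 152 with the authors' values, 143 with trend, 69 with the stricter filter, 2 without a filter, 0 with only the groups compared and 7 with centring (3 higher and 4 lower), and the members' median was 0.0571 with centring and 0.0487 with the mean of probes. For MTF1 siRNA at high zinc (1) it was 3 without background correction, 3 with the authors' values, 3 with trend, 2 with the stricter filter, 2 with the mean of probes, and 0 without a filter or with only the groups compared. All features there (271, 96 higher and 175 lower) were 977, 942, 885, 540, 30 without a filter and 38 with only the groups compared, the split with centring was 89 and 95, without background correction 451 and 526 and with the authors' values 439 and 503, and the members' median was 0.103 with centring. For MTF1 siRNA averaged (0) it was 2 without background correction, 2 with the authors' values and 1 with trend. All features (304, 86 higher and 218 lower) were 713, 675, 638 with trend, 496 with the stricter filter and 86 without a filter, the split with centring was 105 and 105, and the members' median 0.0992. For the interaction (0) it was 1 without background correction, with the authors' values and with trend. All features (3, 1 higher and 2 lower) were 146 (101 higher and 45 lower), 117 with the authors' values (86 higher), 101 with trend, and 1 with centring, without a filter or with the stricter filter, and the median was -0.0114 with the mean of probes.

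With the replicate block, where pairing by number was not settled, the count was 3 for zinc with control siRNA and 0 for MTF1 siRNA at high zinc. All features were 3 for MTF1 siRNA at low zinc, 117 at high zinc and 1 for the interaction.

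With each array left out in turn, members past the threshold ranged from 1 to 6 and from 1 to 2 for zinc with control and MTF1 siRNA, 3 to 7 for zinc averaged, 0 to 1 for MTF1 siRNA at high zinc and averaged, and 0 throughout at low zinc and for the interaction. In that order, all features ranged from 1607 to 2589, 1555 to 2335, 3224 to 3709, 21 to 245 and 130 to 395, and at low zinc from 0 to 20 and for the interaction from 1 to 9. The members' median ranged from 0.0146 to 0.0873, 0.00659 to 0.0681, 0.0210 to 0.0544, -0.0299 to 0.0488 and 0.00663 to 0.0447, and at low zinc from -0.0474 to 0.0294 and for the interaction from -0.0416 to 0.0802. The chip as a block was not run, since the headers name no chip, and a fit of only the groups compared is the same fit for averaged comparisons and the interaction. Dim probes such as those of RRP9 and UTP20 limit what could be measured there.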
